A study of Homo sapiens with 12 samples.

Results

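The epithelial to mesenchymal switch was followed through 10 genes in pancreatic ductal adenocarcinoma cells with and without hairpins against focal adhesion kinase (FAK, encoded by PTK2). The genes were chosen by name: CDH1 and ESRP1, which are used in epithelial cells; CDH2, VIM and FN1, which are used in mesenchymal cells; and the transcription factors ZEB1, ZEB2, SNAI1, SNAI2 and TWIST1. Of the 10 names, 9 were found in the array table as written and ESRP1 was found under its older name RBM35A, so that 10 of 34234 named genes and 14 probes were followed. Each probe was read on its own, because the levels of different probes are not comparable.

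RNA levels were read with Illumina HumanHT-12 v4 beadchips in a pair of established human pancreatic adenocarcinoma lines, Capan-1 and MIA PaCa-2. Cells of each line carried a puromycin selectable pLKO.1 tet-on vector with a scrambled control hairpin (shCtrl) or 1 of 2 FAK hairpins, sh1209 and sh1319, the latter spelled shFAK1319 in the Capan-1 labels. The control arrays therefore carry the vector too, and all 6 groups were given doxycycline at 50 ng/ml for 96 hours per the labels and methods, with puromycin at 1.5 ug/ml (Capan-1) or 3.5 ug/ml (MIA PaCa-2). Each group had 2 arrays, 12 in all on 1 chip, from 500 ng of RNA each, and the labels do not say whether the 2 arrays came from separate cultures, so the p-values measure the spread between these arrays, which may be technical. The lines were puromycin selected stable lines, and no label says that they were single clones. RNA was taken from whole cultures, in which fewer cells of a type and less RNA per cell cannot be told apart.

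Epithelial cells are held together by E-cadherin, the product of CDH1, and their splicing pattern is kept by ESRP1, an RNA-binding protein. When such cells turn mesenchymal, E-cadherin commonly gives way to N-cadherin (CDH2), keratin filaments to vimentin (VIM), and fibronectin (FN1) is laid down around the cells. The zinc finger proteins of the SNAI and ZEB families and the basic helix-loop-helix protein TWIST1 drive this switch, and the SNAI and ZEB proteins repress CDH1 by binding E-boxes in its promoter. In pancreatic cancer the switch is known as a feature of poorly differentiated tumours.

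On the GRCh38.p14 assembly of RefSeq, CDH1 lies at chr16:68737292-68835537, ESRP1 at chr8:94641174-94707466, CDH2 at chr18:27932879-28177130 and VIM at chr10:17228241-17237593. FN1 lies at chr2:215360865-215436068, ZEB1 at chr10:31318417-31529804, ZEB2 at chr2:144384081-144520119, SNAI1 at chr20:49982980-49988886, SNAI2 at chr8:48917598-48921429 and TWIST1 at chr7:19113047-19117636. These are all protein-coding genes. The probes themselves were not placed on the genome, and which transcripts each one reads was not analysed here.

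RefSeq promoter entries were given for CDH2, VIM, FN1, ZEB1 and ZEB2, and not for CDH1, ESRP1, SNAI1, SNAI2 and TWIST1. The 250 bases upstream of the start of CDH2 and VIM are shown because these mesenchymal genes differed between the groups below. They are printed 5′ to 3′ on the gene's own strand, with GC boxes (GGGCGG or CCGCCC) and CCAAT boxes (CCAAT or ATTGG) in capitals.

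CDH2, GRCh38.p14 chr18:28177131-28177380, minus strand: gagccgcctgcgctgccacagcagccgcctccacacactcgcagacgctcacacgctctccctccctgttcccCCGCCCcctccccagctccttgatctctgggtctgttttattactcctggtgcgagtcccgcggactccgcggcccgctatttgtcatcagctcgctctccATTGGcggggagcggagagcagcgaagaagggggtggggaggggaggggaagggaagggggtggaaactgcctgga

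VIM, GRCh38.p14 chr10:17227991-17228240, plus strand: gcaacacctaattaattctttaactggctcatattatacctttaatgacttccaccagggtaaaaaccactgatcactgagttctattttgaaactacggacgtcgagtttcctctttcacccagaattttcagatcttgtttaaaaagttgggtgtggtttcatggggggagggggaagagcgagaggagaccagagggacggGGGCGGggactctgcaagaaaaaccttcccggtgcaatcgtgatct

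The E-box that SNAI and ZEB proteins bind, CACCTG or CAGGTG on either strand, was found in neither window. It was also absent from the FN1 and ZEB2 windows, and ZEB1 held 1 in the window counted here, 57 bases before the start. Of all 35116 RefSeq promoter windows of this length, 17.5% held at least 1. The CDH2 window held 1 GC box, 177 bases before the start, and 1 CCAAT box, 76 bases before it, and the VIM window held 1 GC box, 46 bases before the start, and 0 CCAAT boxes. GC boxes occurred in 42.6% and CCAAT boxes in 32% of all windows, and these motifs were chosen after the windows had been read. A match of letters does not show that a factor binds there.

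The arrays had median intensities of 87.7 to 97.0, and 16259 to 19814 of 47228 gene probes were detected, meaning that their detection p-value was under 0.05. The 24207 probes detected on at least 2 arrays were tested. The probe for PTK2 with the brighter signal (450253) fell in all 4 comparisons with shCtrl. In MIA PaCa-2 it stood at 21.1% (sh1209) and 17.9% (sh1319) of shCtrl after normalization, with limma adjusted p = 1.48e-07 and 5.16e-08, and in Capan-1 at 65.4% and 29.2%, with limma adjusted p = 0.00362 and 5.94e-06. The fall with sh1209 in Capan-1 was past the threshold under quantile normalization and not under median scaling (adjusted p = 0.233), and the second PTK2 probe (2680750), near background, passed in none of the 4 comparisons. Of 6 ductal markers, all were detected on every Capan-1 array, whereas on every MIA PaCa-2 array only KRT8, KRT18 and MUC1 were, and EPCAM was detected on none.

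Most of the transcription factors of the switch were read by probes that lay at background in both lines. ZEB1, ZEB2, SNAI1 and TWIST1 had 1 probe each, and whether these probes can detect their transcripts was not tested. The probes for ZEB1 (1690768), ZEB2 (5050441) and SNAI1 (5340010) were detected on 0 of 12 arrays, with deposited intensities of 77.4 to 90.8, 80.5 to 92 and 76.7 to 93.3. The TWIST1 probe (4490673) had intensities of 84.5 to 101.5 and was detected on 1 array, the second Capan-1 shCtrl array. Of the 3 FN1 probes, 5670228 and 4040592 were detected on 0 arrays. Probes 1690768, 5050441, 5340010, 4490673 and these 2 FN1 probes were therefore not tested, which left 8 of the 14 probes, from 6 of the 10 genes. A probe at background gives only an upper bound on its level. With the filter left out, the lowest adjusted p of these probes in any comparison was 0.108, for TWIST1 between the lines.

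**Figure D1:**
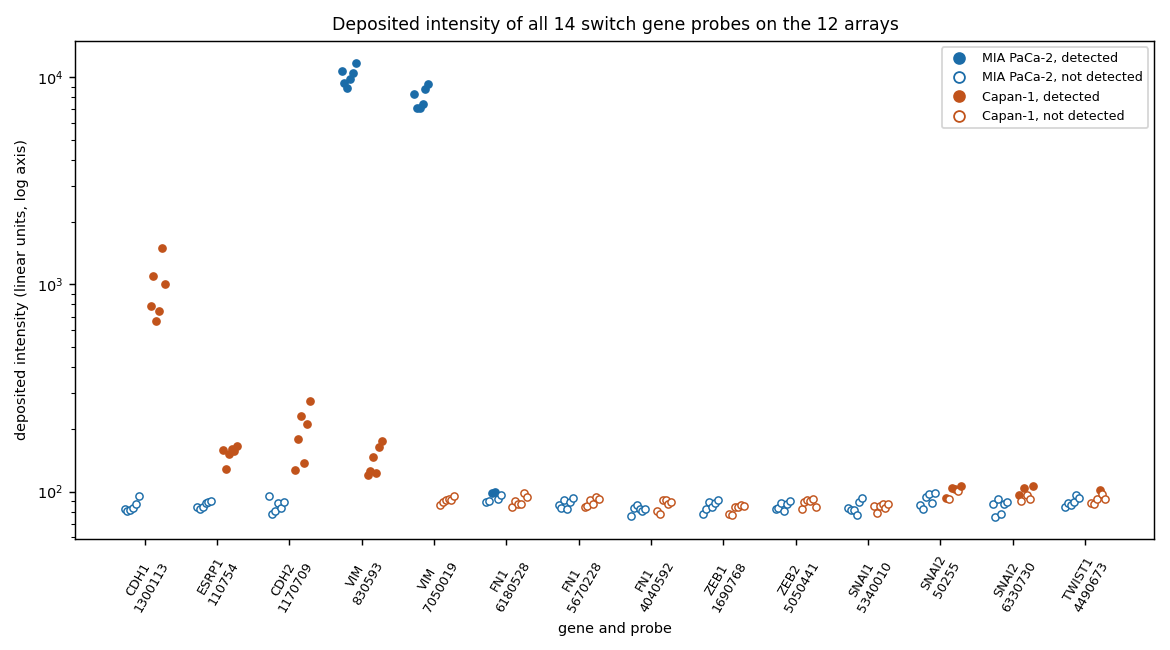
Deposited intensity (linear units on a log axis) of the 14 probes of the 10 genes on 12 arrays, with MIA PaCa-2 in blue and Capan-1 in orange. Filled points were detected at a detection p-value under 0.05 and open points were not; CDH1, ESRP1 and CDH2 were filled only in Capan-1, VIM probe 7050019 only in MIA PaCa-2, and the probes for ZEB1, ZEB2 and SNAI1 were open on all 12 arrays.

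SNAI2 and the third FN1 probe stood at the edge of detection. SNAI2 probe 50255 was detected on 4 of 12 arrays, both Capan-1 shCtrl arrays and both Capan-1 sh1319 arrays, at intensities of 93.5, 102.7, 104.4 and 106.4. SNAI2 probe 6330730 was detected on 3 arrays, the first Capan-1 shCtrl array and both sh1319 arrays, at 96.6, 103.8 and 106.8. Neither SNAI2 probe was detected on any MIA PaCa-2 or Capan-1 sh1209 array. FN1 probe 6180528 was detected on 2 arrays, 1 of MIA PaCa-2 sh1319 at 98.8 and 1 of MIA PaCa-2 shCtrl at 99.3, and both groups held an undetected array as well.

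The cell lines were first compared with the control hairpin. The 2 cadherins, ESRP1 and 1 SNAI2 probe were higher in Capan-1, and both VIM probes were higher in MIA PaCa-2. In this comparison 6 of the 8 tested probes passed the threshold (adjusted p under 0.05), 2 of them higher in MIA PaCa-2 and 4 lower, against 42.1% of all tested probes, 22.5% higher and 19.6% lower. This contrast therefore had a large background of differences, and the sizes describe the genes better than the count does. The 4 lower probes were undetected on every MIA PaCa-2 array, and VIM probe 7050019 on every Capan-1 array. They passed the filter only through the other line, which fixed their direction. The count is therefore not read against the share of all probes.

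CDH1 was read by probe 1300113. Its normalized intensity on the log2 scale was 4.24 and 4.21 on the MIA PaCa-2 shCtrl arrays and 9.66 and 9.45 on the Capan-1 shCtrl arrays. It was not detected on any of the 6 MIA PaCa-2 arrays, whose deposited intensities were 80.3 to 95.6, and was detected on all 6 Capan-1 arrays, at 669.1 to 1501.9. CDH1 was at least 28.7-fold higher in Capan-1 (limma adjusted p = 4.27e-11), taken against the lowest signal among detected probes on the MIA PaCa-2 shCtrl arrays. Every "at least" value below was set in this way, on the arrays of the group in which the probe was undetected.

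ESRP1, the epithelial splicing regulator, followed the same order. Probe 110754 read 4.27 and 4.31 in MIA PaCa-2 shCtrl, where it was not detected, and 6.55 and 6.42 in Capan-1 shCtrl, where it was. The level in Capan-1 was at least 3.43-fold higher (limma adjusted p = 1.42e-08).

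VIM, the intermediate filament of mesenchymal cells, stood the other way round and was among the largest differences on the array. Probe 830593 read 13.28 and 13.14 in MIA PaCa-2 shCtrl and 5.71 and 5.60 in Capan-1 shCtrl, and it was detected on all 12 arrays. The difference was 7.55 ± 0.13 on the log2 scale (SE, n = 2 per group; 188-fold; limma adjusted p = 2.47e-12), rank 20 by size among the 24207 tested probes. Probe 7050019 read 12.84 and 12.76 against 4.36 and 4.40, was detected on no Capan-1 array, and exceeded it in MIA PaCa-2 by at least 294-fold (limma adjusted p = 5.14e-13). The 2 VIM probes thus gave the same direction, and only 1 of them gave a measured level in Capan-1.

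CDH2 encodes N-cadherin, the cadherin of mesenchymal cells, yet its probe was detected only in Capan-1. Probe 1170709 read 4.70 and 4.30 in MIA PaCa-2 shCtrl, below detection, and 5.91 and 5.94 in Capan-1 shCtrl. It was at least 2.33-fold higher in Capan-1 (limma adjusted p = 3.87e-06). In Capan-1 the CDH1 and CDH2 probes were therefore both detected on all 6 arrays, and in MIA PaCa-2 neither was detected on any.

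The remaining probes of this comparison lay near background. SNAI2 probe 6330730 was 0.46 ± 0.14 lower in MIA PaCa-2 on the log2 scale (SE; limma adjusted p = 0.0189), with 4.34 and 4.15 against 4.84 and 4.55, and the call was lost under median scaling (adjusted p = 0.0892) and without MIA PaCa-2 shCtrl replicate 2 (0.117) or Capan-1 shCtrl replicate 1 (0.163). SNAI2 probe 50255 differed by −0.28 (adjusted p = 0.130), a call gained without MIA PaCa-2 shCtrl replicate 2 (−0.47, adjusted p = 0.0286). FN1 probe 6180528 differed by 0.33 (adjusted p = 0.135), a call gained without MIA PaCa-2 shCtrl replicate 1 (0.55, adjusted p = 0.0310). For these 3 probes 1 array decided the side of the threshold.

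**Figure D2:**
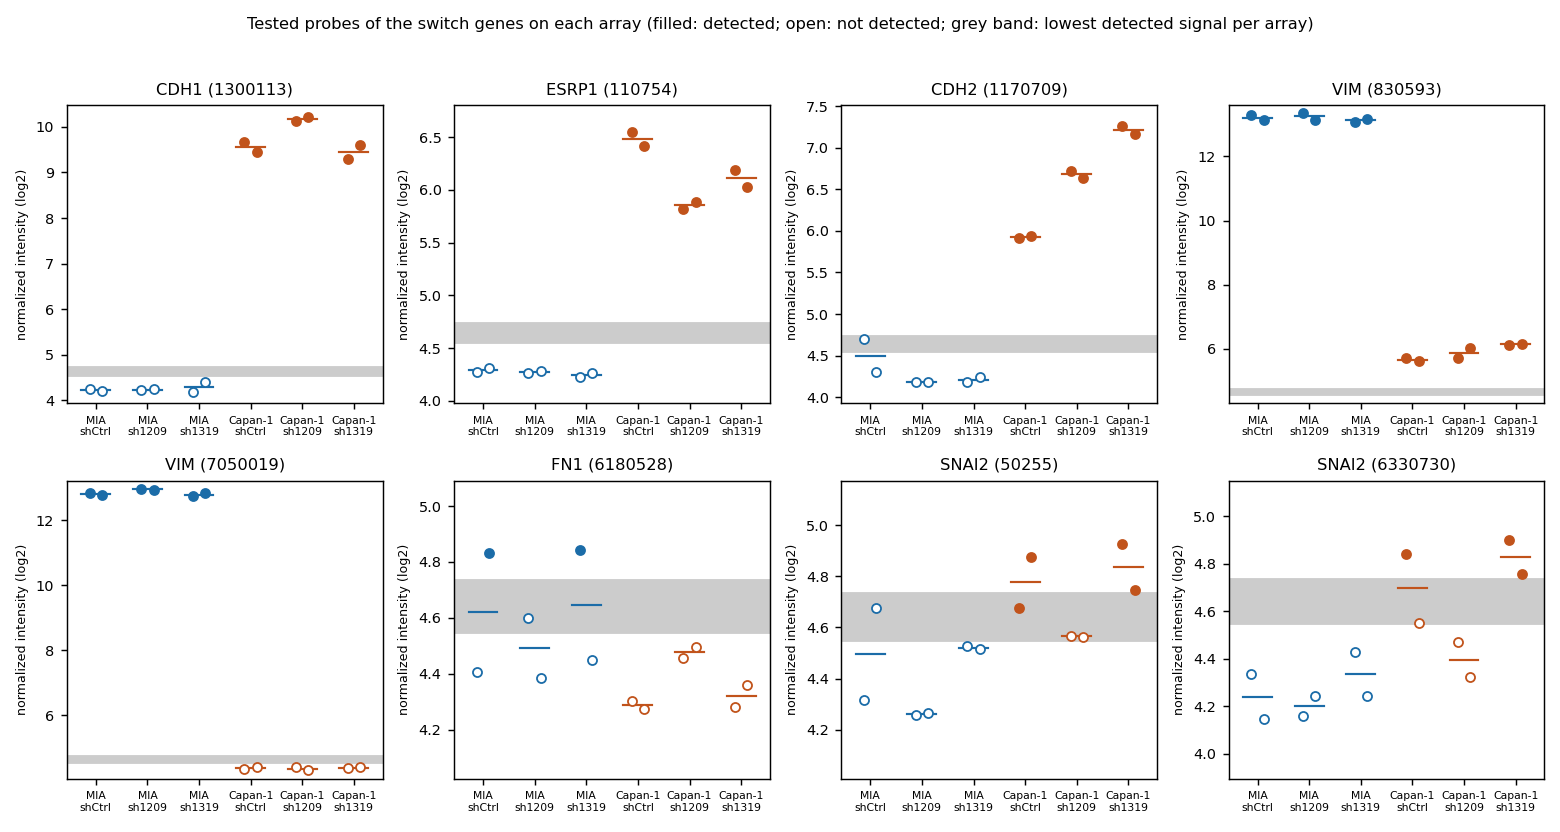
Normalized intensity (log2; the vertical scale differs between panels) of the 8 tested probes on each of the 2 arrays of the 6 groups, with a bar at the group mean and the range of the lowest detected signal per array as a grey band. Capan-1 stood above MIA PaCa-2 for CDH1, ESRP1 and CDH2 and below it for both VIM probes, and within Capan-1 the CDH2 points of both FAK hairpins stood above 5.94, the higher of the shCtrl points.

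The next comparisons asked how the same probes differed between each FAK hairpin and shCtrl of the same line; the 2 comparisons within a line share the shCtrl arrays. In MIA PaCa-2, 0 of the 8 tested probes passed with sh1209 and 0 with sh1319, against 18.0% (9.05% higher, 8.99% lower) and 24.3% (12.2% higher, 12.1% lower) of all tested probes with limma. At an unadjusted p under 0.05 the counts were 1, for CDH2, and 0. The plain two-sided test of the methods gave 0 and 0 unadjusted, and after adjustment 0 and 0 where it called 1 and 4 of all tested probes. Of the 8 probes, 5 (CDH1, ESRP1, CDH2 and both SNAI2 probes) were undetected on every MIA PaCa-2 array. They were tested because of their Capan-1 signal, and the 1 unadjusted pass of CDH2 was a difference between undetected values. The 5 undetected probes could have shown only a rise into detection, and only the 3 probes for VIM and FN1 a change in either direction. These counts are therefore not read against the share of all probes. In Capan-1, 3 of 8 passed with sh1209 and 3 of 8 with sh1319, against 16.8% (8.14% higher, 8.69% lower) and 13.7% (6.95% higher, 6.77% lower) of all tested probes. VIM probe 7050019 and FN1 probe 6180528 were undetected on every Capan-1 array, while CDH1, ESRP1 and CDH2 were tested only through their Capan-1 signal. The Capan-1 counts are therefore not read against those shares either. CDH2 rose with both hairpins in Capan-1 and ESRP1 fell with both, CDH1 rose with sh1209, and 1 VIM probe rose with sh1319.

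CDH2 had the largest hairpin changes of the 8 probes. In Capan-1 its log2 intensity was 5.91 and 5.94 with shCtrl, 6.72 and 6.64 with sh1209, and 7.26 and 7.17 with sh1319. The 3 groups did not overlap, and the deposited intensities kept the same order, at 127.2 and 136.7, 178.6 and 212.6, and 231.9 and 273.3. CDH2 rose by 0.75 ± 0.14 with sh1209 (log2, SE, n = 2 per group; 1.68-fold; limma adjusted p = 0.00301) and by 1.29 ± 0.14 with sh1319 (2.44-fold; limma adjusted p = 0.000136). Of all tested probes, 5.65% changed more with sh1209 and 0.702% with sh1319. Both rises kept their call under each of the other settings tried except the plain two-sided test of the methods, with values of 0.39 to 0.97 for sh1209 and 0.73 to 1.5 for sh1319.

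The rise of CDH2 was larger with sh1319 than with sh1209 by 0.53 ± 0.14 on the log2 scale (limma adjusted p = 0.0261). In this direct comparison of the hairpins in Capan-1, 2 of 8 probes passed, CDH1 higher and CDH2 lower with sh1209. Of all tested probes 11.3% passed (5.81% higher, 5.47% lower). Both probes were tested only through their Capan-1 signal, so the count is not read against that share. The CDH2 difference lost its call under median scaling (adjusted p = 0.147) and without any 1 of the 4 Capan-1 arrays with a FAK hairpin, where it was −0.58 without sh1209 replicate 1, −0.49 without sh1209 replicate 2, −0.49 without sh1319 replicate 1 and −0.58 without sh1319 replicate 2. The PTK2 level was the lower with sh1319 in Capan-1, at 29.2% of shCtrl against 65.4%, and its part in this difference was not tested.

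In MIA PaCa-2 the CDH2 probe stayed below detection on all 6 arrays, with detection p-values of 0.05325 and 0.54416 on the shCtrl arrays. Its normalized values were 4.70 and 4.30 with shCtrl, 4.18 and 4.18 with sh1209, and 4.18 and 4.24 with sh1319. The differences of −0.31 and −0.29 did not pass (limma adjusted p = 0.145 and 0.159), and both passed without MIA PaCa-2 shCtrl replicate 2 (−0.52 and −0.50; adjusted p = 0.0283 and 0.0260). A probe that was not detected in either group gives no fold change.

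CDH1 responded to 1 hairpin in Capan-1. Its log2 intensity was 9.66 and 9.45 with shCtrl, 10.13 and 10.23 with sh1209, and 9.29 and 9.60 with sh1319. Only the sh1209 arrays stood apart from shCtrl, and the sh1319 arrays overlapped it. CDH1 rose by 0.63 ± 0.14 with sh1209 (log2, SE; 1.54-fold; limma adjusted p = 0.00952), and the call was lost without Capan-1 shCtrl replicate 2 (0.52, adjusted p = 0.0853) or sh1209 replicate 2 (0.58, adjusted p = 0.0693). With sh1319 the difference was −0.11 (95% confidence interval −0.41 to 0.20; limma adjusted p = 0.719), which changed sign under median scaling.

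The 2 hairpins differed for CDH1 in Capan-1 by 0.73 ± 0.14 on the log2 scale, higher with sh1209 (limma adjusted p = 0.00568). The difference missed the threshold without Capan-1 sh1319 replicate 1 (0.58, adjusted p = 0.0587). In MIA PaCa-2 the probe was not detected with any hairpin, and its normalized values were 4.19 to 4.41.

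ESRP1 fell with both hairpins in Capan-1 after quantile normalization. Its log2 intensity was 6.55 and 6.42 with shCtrl, 5.82 and 5.89 with sh1209, and 6.19 and 6.03 with sh1319. Each FAK hairpin group stood below shCtrl on this scale. In the deposited intensities, before any scaling, the values were 157.9 and 161.3, 128.9 and 156.2, and 151 and 166.8, so that the sh1319 arrays enclosed the shCtrl arrays.

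ESRP1 fell by 0.63 ± 0.11 with sh1209 (log2, SE; 1.55-fold lower; limma adjusted p = 0.00256) and by 0.38 ± 0.11 with sh1319 (1.30-fold lower; limma adjusted p = 0.0438). Under median scaling both calls were lost, at −0.39 (adjusted p = 0.256) and −0.11 (adjusted p = 0.834). The sh1319 call was also lost on leaving out any 1 of the 12 arrays. Median scaling moved the median of all tested probes in Capan-1 to 0.09 with sh1209 and 0.11 with sh1319, and raised the share of higher probes among those called from 48.4% and 50.6% to 81.7% and 85.3%. Relative to those medians the ESRP1 differences remained below 0. The hairpins differed for ESRP1 by −0.26 (95% confidence interval −0.50 to −0.01; limma adjusted p = 0.192), which did not pass, and in MIA PaCa-2 the probe stayed undetected at 4.23 to 4.31.

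VIM did not pass with either hairpin in MIA PaCa-2, the line with the high level. Probe 830593 read 13.28 and 13.14 with shCtrl, 13.35 and 13.15 with sh1209, and 13.08 and 13.17 with sh1319, and its differences were 0.04 (95% confidence interval −0.25 to 0.33) and −0.09 (−0.38 to 0.21). Probe 7050019 read 12.84 and 12.76, 12.97 and 12.94, and 12.74 and 12.82, with differences of 0.15 (−0.08 to 0.39) and −0.02 (−0.25 to 0.22). The intervals of the 4 differences all held 0, and none reached 0.5 in either direction.

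In Capan-1, where VIM was low, probe 830593 read 5.71 and 5.60 with shCtrl, 5.72 and 6.01 with sh1209, and 6.11 and 6.15 with sh1319. Both sh1319 arrays stood above every other Capan-1 array on this scale. In the deposited intensities the sh1319 arrays, at 147.3 and 174.9, overlapped the sh1209 arrays, at 125 and 163.7. The shCtrl arrays stood at 119.8 and 123.2. VIM rose by 0.47 ± 0.13 with sh1319 (log2, SE; 1.39-fold; limma adjusted p = 0.0363) and differed by 0.21 with sh1209 (adjusted p = 0.370), and the hairpins differed by −0.26 (adjusted p = 0.268). The sh1319 call was lost without background correction (0.21, adjusted p = 0.0739) and without any 1 of the 4 Capan-1 shCtrl and sh1319 arrays, with values of 0.53 and 0.42 without shCtrl replicate 1 and 2 and of 0.49 and 0.45 without sh1319 replicate 1 and 2. The other VIM probe was undetected in Capan-1 at 4.30 to 4.41 and could not show a fall there.

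**Figure D3:**
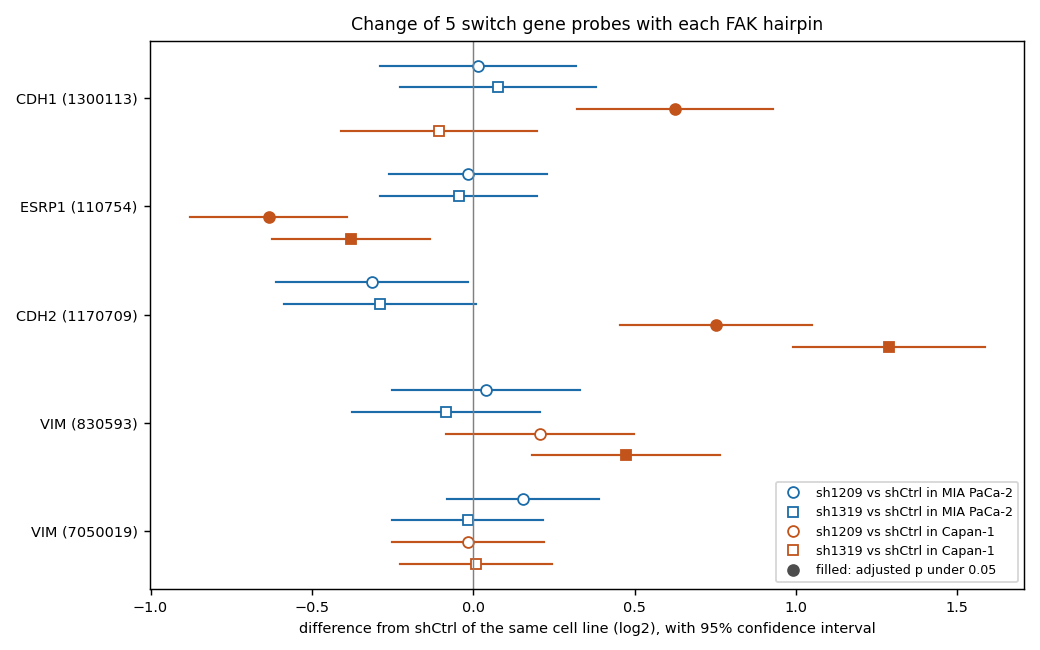
Difference from shCtrl of the same line (log2) of the 5 probes for CDH1, ESRP1, CDH2 and VIM with sh1209 (circles) and sh1319 (squares) in MIA PaCa-2 (blue) and Capan-1 (orange), with 95% confidence intervals from limma. Filled marks had an adjusted p under 0.05, and all 6 of these were in Capan-1; the largest was CDH2 with sh1319, at 1.29.

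SNAI2 was the only transcription factor of the 5 with tested probes, and neither of its probes passed with a FAK hairpin in either line. In Capan-1, probe 6330730 read 4.84 and 4.55 with shCtrl, 4.47 and 4.32 with sh1209, and 4.90 and 4.76 with sh1319, and probe 50255 read 4.68 and 4.88, 4.57 and 4.56, and 4.92 and 4.74. Both probes stood lower with sh1209 than with sh1319. The difference between the hairpins was −0.43 ± 0.14 for probe 6330730 (log2, SE; limma adjusted p = 0.0692) and −0.27 ± 0.14 for probe 50255 (adjusted p = 0.281), and neither passed.

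The hairpin changes were also set against each other between the lines, as the mean change over both hairpins in MIA PaCa-2 minus that in Capan-1. Of the 8 probes, 2 passed, 1 in each direction, against 14.4% of all tested probes (7.24% higher, 7.11% lower). CDH2 differed by −1.32 ± 0.17 (log2, SE; limma adjusted p = 0.000305) and ESRP1 by 0.48 ± 0.14 (limma adjusted p = 0.0383). Both probes were undetected on all MIA PaCa-2 arrays, so this contrast sets a measured change in Capan-1 against a signal at background and does not show how the genes responded in MIA PaCa-2. The ESRP1 difference lost its call under median scaling (0.22, adjusted p = 0.714), without background correction (0.23, adjusted p = 0.0506) and in 11 of the 12 fits that left out 1 array. For CDH1 the difference was −0.21 (adjusted p = 0.462), and for VIM probe 830593 it was −0.36 (adjusted p = 0.173). In the direct comparison of the hairpins in MIA PaCa-2, 0 of 8 probes passed with limma against 22.6% of all tested probes (11.5% higher, 11.2% lower). The same 5 probes were undetected there, so this count is not read against that share either. At an unadjusted p under 0.05 the count was 0 with limma and 1 with the plain two-sided test of the methods, which after adjustment gave 0 of the 8 and 1 of all tested probes.

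The genes closest to each switch gene over the 12 arrays were named by the root mean square difference of the centred log2 values, each gene standing by its brightest probe, among 12721 genes. Closest to CDH1 were C4BPB at 0.12, ALOX5 at 0.16 and CGN, the tight junction protein cingulin, at 0.21, against a median of 2.77 over all genes. Closest to ESRP1 were TMEM141 at 0.13, HPSE, which encodes heparanase, at 0.13 and VILL at 0.14, against a median of 1.01. Closest to CDH2 were ERP27 at 0.21, ADGRE1 at 0.22 and CCRL2 at 0.24, against 1.26, and closest to VIM were ID3 at 0.39, SCG2 at 0.41 and SRGN, which encodes serglycin, at 0.53, against 3.66. The distance grows with a gene's range, so the distances are not comparable between the switch genes. These values are a description over arrays that mainly fall into the 2 cell lines.

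ERP27 read 5.84 with shCtrl, 6.47 with sh1209 and 7.41 with sh1319 as group means in Capan-1, beside 5.93, 6.68 and 7.22 for CDH2. SCG2 read 12.41, 11.53 and 12.22 in MIA PaCa-2, beside 13.21, 13.25 and 13.13 for VIM probe 830593. ERP27 was picked for its likeness to CDH2 on these same arrays, so their shared order of groups is part of that choice.

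The wider programme was followed in 26 epithelial genes, 26 mesenchymal genes and 11 other transcription factors of the switch, each by its brightest probe. Between the lines with shCtrl, 20 of 24 tested epithelial genes were lower in MIA PaCa-2 and 0 were higher, with a median difference of −3.91 on the log2 scale against 0.04 for all tested probes, of which 22.5% were called higher and 19.6% lower. Of the 26 epithelial genes, 15 were detected on no MIA PaCa-2 array and 2 of these on no array at all. Tested genes undetected in MIA PaCa-2 entered through Capan-1 and could be called only as lower. The count is therefore not read against those shares, and the median rests in part on values at background. MAL2, a protein of apical transport, was at least 170-fold higher in Capan-1, and EPCAM, the epithelial cell adhesion molecule, at least 195-fold (limma adjusted p = 5.14e-13 and 9.06e-13). Of 17 tested mesenchymal genes, 10 were higher in MIA PaCa-2 and 2 were lower, beside the same 22.5% and 19.6% of all tested probes, with a median of 1.65. Of the 26 mesenchymal genes, 8 were detected on no MIA PaCa-2 array and 9 on no Capan-1 array, with 5 detected in neither line. Tested genes undetected in a line entered through the other line, which fixed the direction in which they could be called. The counts of 10 and 2 are therefore not read against those shares, and the median includes values at background. The actin-binding and cortical proteins TPM2, MSN and TAGLN were higher in MIA PaCa-2 by 5.51, 3.46 and 3.42.

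Some mesenchymal genes stood the other way. ACTA2, smooth muscle actin, was undetected in MIA PaCa-2 shCtrl and at least 2.88-fold higher in Capan-1, and S100A4, a calcium-binding protein, was 0.52 ± 0.12 lower in MIA PaCa-2 (limma adjusted p = 0.00418), a call lost under median scaling. CDH2 had the same direction as these. Among the 7 tested transcription factors FOXC1 was lower in MIA PaCa-2 by 1.39 and ZNF217 higher by 0.63; the ZNF217 call was lost under median scaling, without MIA PaCa-2 shCtrl replicate 1 and without Capan-1 shCtrl replicate 1, where the count of higher factors was 0.

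The FAK hairpins in MIA PaCa-2 moved several mesenchymal genes while VIM did not pass. With sh1209, 6 of 17 tested genes rose and 1 fell, with a list median of 0.19, and with sh1319, 7 rose and 0 fell, with a list median of 0.44, against medians of −0.01 to 0.01 over all tested probes, of which 9.05% were called higher and 8.99% lower with sh1209 and 12.2% and 12.1% with sh1319. The collagen gene COL1A2 rose by 2.97 ± 0.11 with sh1209 and 4.31 ± 0.11 with sh1319 (limma adjusted p = 1.60e-08 and 7.14e-10). COL3A1 was undetected with shCtrl and at least 8.26-fold and 6.78-fold higher, and ACTA2 was undetected with shCtrl and at least 2.04-fold and 5.47-fold higher. Genes undetected with shCtrl, such as these, could be called only as higher. Of the 26 genes on the list, 8 were detected on no MIA PaCa-2 array. The counts of rises and falls are therefore not read against the shares of all tested probes. TAGLN, transgelin, fell by 0.82 with sh1209 and rose by 1.64 with sh1319, and the hairpins differed for it by −2.46 ± 0.11 (log2, SE; limma adjusted p = 8.01e-08). The count of 1 fall with sh1209 was 2 without MIA PaCa-2 shCtrl replicate 1 or any 1 of the Capan-1 shCtrl and sh1209 arrays, and the count of 0 with sh1319 was 1 without MIA PaCa-2 shCtrl replicate 1 or either Capan-1 sh1209 array.

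Because collagen is also made by fibroblasts, the marker lists of other cell types were read beside these values. Of the 6 fibroblast and stellate cell markers, of which COL3A1 and THY1 are also in the mesenchymal list, COL3A1 was the only one detected on any MIA PaCa-2 array. DCN, LUM, PDGFRA, PDGFRB and THY1 were detected on none of the 6 MIA PaCa-2 arrays. Their summed level was therefore background and gives only an upper bound. Without COL3A1 the summed normalized level of the list was 98.0 to 99.7 with shCtrl, 97.7 to 105 with sh1209 and 96.8 to 96.9 with sh1319, and with it 119 to 123, 313 to 322 and 266 to 283.

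The summed level of the 4 leukocyte markers in MIA PaCa-2 was 83.8 to 89.8, 84.9 to 97.6 and 84.6 to 105 for the same groups, and that of the 3 endothelial markers 58.9 to 63.3, 59.8 to 66.3 and 57.1 to 60.5. On each MIA PaCa-2 array 1 or 2 of the leukocyte markers and 0 or 1 of the endothelial markers were detected. These MIA PaCa-2 sums were therefore made up mostly of background. CDH5 was detected on no array. In Capan-1 the endothelial sum was 60.4 to 67.6 with shCtrl, 87.9 to 88.4 with sh1209 and 68.1 to 70.3 with sh1319, through PECAM1 and VWF. The part of these markers in the Capan-1 changes was not tested.

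Of 24 tested epithelial genes in MIA PaCa-2, 1 rose and 1 fell with sh1209, and 2 rose and 3 fell with sh1319, beside shares of all tested probes of 9.05% higher and 8.99% lower and of 12.2% and 12.1%. Of the 26 genes on this list, 15 were detected on no MIA PaCa-2 array, 2 of them on no array at all. The tested ones among these 15 passed the filter through Capan-1 and could not show a fall. These counts are therefore not read against those shares. KRT19, a simple epithelial keratin, fell by 1.44 and 1.47 and MARVELD2, the tight junction protein tricellulin, rose by 0.97 and 1.70 with the 2 hairpins. With sh1319 the keratins KRT8 and KRT18 also fell, by 1.09 and 0.80, and KRT7, undetected with shCtrl, rose to at least 1.12-fold. The KRT18 call was lost without MIA PaCa-2 shCtrl replicate 1 or sh1319 replicate 2, and the KRT7 call without shCtrl replicate 2 or sh1319 replicate 1, under median scaling and without background correction. Without MIA PaCa-2 shCtrl replicate 2 the count of falls with sh1209 was 2, and that of rises with sh1319 was 1.

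In Capan-1 epithelial genes moved both ways. With sh1209, 6 of 24 rose and 2 fell, with a list median of 0.09, and with sh1319, 5 rose and 2 fell, with a list median of −0.16. Of all tested probes 8.14% were called higher and 8.69% lower with sh1209, and 6.95% and 6.77% with sh1319. Of the 26 genes on this list, 15 were detected on no MIA PaCa-2 array, 2 of them on no array at all. The tested ones among these 15 passed the filter only through Capan-1. The Capan-1 counts are therefore not read against those shares. The membrane protease inhibitor SPINT1 rose by 1.67 and 0.77 and the membrane protease PRSS8 by 1.23 and 0.72, while KRT7 fell by 0.40 and 0.54. Under median scaling 0 epithelial genes fell with either hairpin, and without background correction 4 and 7 did. The falls of KRT7 were lost with sh1209 without any 1 of the 4 Capan-1 shCtrl and sh1209 arrays, and with sh1319 without shCtrl replicate 2 or sh1319 replicate 1.

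CLDN3, a claudin, rose by 0.60 and MAL2 fell by 0.61 with sh1209, and MARVELD2 rose by 0.75 and SPINT2, another protease inhibitor, fell by 0.44 with sh1319. The SPINT2 fall lost its call without either Capan-1 shCtrl array or sh1319 replicate 1. The rise of SPINT1 with sh1319 lost its call without shCtrl replicate 1 or sh1319 replicate 2, that of PRSS8 with sh1319 without shCtrl replicate 1 or sh1319 replicate 1, and that of CLDN3 with sh1209 without shCtrl replicate 1, all of Capan-1. Without Capan-1 shCtrl replicate 2 the count of rises with sh1209 was 3, and without Capan-1 shCtrl replicate 1 that with sh1319 was 2.

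Of the mesenchymal genes in Capan-1, 3 of 17 rose and 0 fell with sh1209, and 3 rose and 1 fell with sh1319, beside the same shares of all tested probes, 8.14% higher and 8.69% lower and 6.95% and 6.77%. Of the 26 genes on this list, 9 were detected on no Capan-1 array and 8 on no MIA PaCa-2 array. These counts are therefore not read against those shares. LGALS1, galectin-1, rose by 1.92 ± 0.13 and 0.61 ± 0.13 and ACTA2 by 0.44 ± 0.11 and 0.55 ± 0.11 (log2, SE). With sh1319 the LGALS1 call was lost without Capan-1 shCtrl replicate 2 or sh1319 replicate 2, and the ACTA2 call without shCtrl replicate 2 or sh1319 replicate 1. TGFBI, a matrix protein, rose by 0.53 with sh1209, COL6A1, a collagen, rose by 0.97 with sh1319, and MSN, moesin, fell by 0.47 with sh1319. The counts of 3 rises dropped to 1 without Capan-1 shCtrl replicate 2 for both hairpins and without either sh1209 array for sh1209, the rise of TGFBI was also lost without background correction (0.19, adjusted p = 0.0766), and the fall of MSN was lost under median scaling, without background correction and without Capan-1 shCtrl replicate 1, sh1319 replicate 1 or sh1319 replicate 2.

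Of the 11 other transcription factors, 7 were tested; KLF8 was detected on 1 array and SNAI3, TCF4 and FOXC2 on 0. FOXC1, a forkhead protein, passed with both hairpins in both lines. It rose by 1.06 and 0.88 with sh1209 and sh1319 in MIA PaCa-2 and by 0.86 and 0.68 in Capan-1, each with an SE of 0.12 on the log2 scale (limma adjusted p = 0.000102, 0.000231, 0.000557 and 0.00338). In MIA PaCa-2 with sh1319, SOX9 fell by 0.97 and ZNF217 by 0.70. The ZNF217 fall was lost under median scaling and without MIA PaCa-2 shCtrl replicate 1 or sh1319 replicate 1, which left 1 factor lower.

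**Figure D4:**
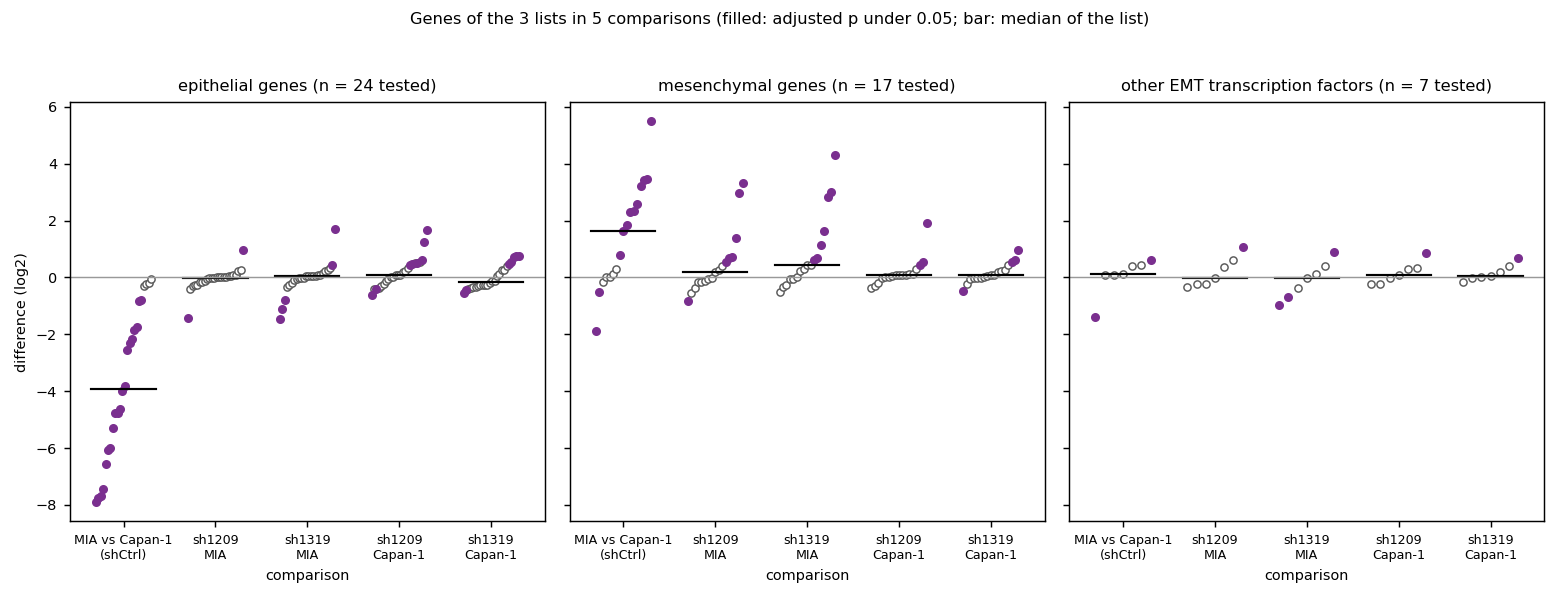
Difference (log2) of each tested gene of the 3 lists between the lines with shCtrl (MIA PaCa-2 minus Capan-1) and between each FAK hairpin and shCtrl, sorted within a column, with filled points at an adjusted p under 0.05 and a bar at the list median. The epithelial median was −3.91 between the lines and −0.16 to 0.09 with the hairpins, and the mesenchymal median 1.65 between the lines and 0.07 to 0.44 with the hairpins.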

How the data were processed

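The deposited table holds, for every probe and array, the authors' raw intensity (linear scale, not normalized) and a detection p-value; the labels' processing notes name GenomeStudio 2011.1. The table has 47320 rows, of which 92 were spike-in controls, and 28 empty columns. Background was corrected with the nec function of limma 3.58.1 (R 4.3.3), by normexp from the detection p-values. The offset was 16, which understates folds of dim probes. Spike-ins were then dropped, and the gene probes were put on the log2 scale and quantile-normalized between arrays. Probes with a detection p-value under 0.05 on at least 2 of 12 arrays were tested. In limma, 6 group means were fitted to 12 arrays, leaving 6 residual degrees of freedom. Benjamini-Hochberg adjustment ran over all 24207 tested probes, separately in each of the 8 comparisons. The number of arrays, 2 per group, limits the precision. Arrays of a group correlated at 0.991 to 0.994 across probes.

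Every probe of the 10 genes and PTK2 is reported. From the lists, the text names up to 3 of the largest rises and 3 of the largest falls among those called in a comparison; some list genes are not reported here. The members and lists were chosen with earlier results of these data known, so a list is no independent evidence of a direction. Alternatives left out the background correction, the filter, either cell line or each array in turn, tightened the filter, scaled arrays to their medians instead, added the replicate number as a block, or ran the methods' t-test on the same values. RefSeq gave promoters and coordinates (GRCh38.p14).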

Additional observations from a re-analysis of the deposited data

Results flagged for a closer look

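For CDH2 and ESRP1 the contrast of the hairpin changes between the 2 lines passed its own test. The mean change over both hairpins in MIA PaCa-2 minus that in Capan-1 was −1.32 for CDH2 probe 1170709 (log2; limma adjusted p = 0.000305) and 0.48 for ESRP1 probe 110754 (limma adjusted p = 0.0383). Neither probe was detected on any MIA PaCa-2 array, so no response there was measured and the contrast does not show that the lines responded differently. The ESRP1 call was lost under median scaling (0.22, adjusted p = 0.714), without background correction (0.23, adjusted p = 0.0506) and without 11 of the 12 arrays, each left out in turn, where the adjusted p ranged from 0.0368 to 0.147 over the 12 fits.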

How the results depend on the processing

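The counts of called probes of the 10 genes were 3 with sh1209, 3 with sh1319 and 2 between the hairpins in Capan-1, 6 between the lines, 2 for the difference in response between the lines, and 0 in the 3 comparisons within MIA PaCa-2. Without background correction the difference in response had 1 call, and under median scaling it had 1 and the hairpins in Capan-1 differed in 1. The methods' t-test, after Benjamini-Hochberg adjustment, gave 0 calls with sh1209, 0 with sh1319 and 0 between the hairpins in Capan-1, where it called 0, 0 and 2 of all tested probes, against 4935, 4393 and 3988 unadjusted, when 4, 2 and 2 of the 8 probes passed. Without 1 array at a time the counts ranged from 2 to 3 with sh1209 and 1 to 2 with sh1319 in Capan-1, 0 to 2 between the hairpins there, 5 to 7 between the lines, 1 to 2 for the difference in response, 0 to 1 with either hairpin in MIA PaCa-2 and 0 to 0 between them. The sh1319 count in Capan-1 was 1 without any 1 of the Capan-1 shCtrl and sh1319 arrays, the 0 between the hairpins came without Capan-1 sh1319 replicate 1, and the 1 with either hairpin in MIA PaCa-2 came without its shCtrl replicate 2. A lone array was then assumed to vary like the other groups.

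Signs turned for differences near 0 that did not pass in any of these fits. Under median scaling VIM probe 830593 with sh1209 in MIA PaCa-2 was −0.040, VIM probe 7050019 with sh1319 there 0.039, and CDH1 with sh1319 in Capan-1 0.067. Without 1 array at a time, VIM probe 830593 with sh1209 in MIA PaCa-2 ranged from −0.060 to 0.14, VIM probe 7050019 with sh1319 there from −0.060 to 0.024, CDH1 with sh1319 in Capan-1 from −0.26 to 0.050, and VIM probe 7050019 in Capan-1 from −0.073 to 0.038 with sh1209 and from −0.082 to 0.029 between the hairpins. Median scaling also moved the share of higher probes among those called to 66.6% with sh1319 in MIA PaCa-2, 34.7% between the hairpins there and 31.7% for the difference in response, from 50.3%, 50.6% and 50.4%. With the replicate number as a block, the ESRP1 fall with sh1319 missed the threshold (adjusted p = 0.0549), and the SNAI2 probe 6330730 difference between the hairpins in Capan-1 (adjusted p = 0.0466) passed, as did PTK2 probe 2680750 with sh1209 there (adjusted p = 0.0488). Samples of the same number also shared a run of chip positions, as the labels place them at A to F or at G to L. The 15 correlations of their deviations were −0.06 to 0.16, and 1 was over 0.1. An effect of chip position apart from the replicate number was not tested. Of 1675 comparisons of 90 single values with their alternatives, 1506 kept direction and side of the threshold, 149 lost the call, 8 gained it and 12 turned sign. The cause of these changes was not tested. Of the 14 probes, 6 were not tested. In Capan-1, CDH2 read 5.91 to 7.26, ESRP1 5.82 to 6.55 and VIM probe 830593 5.60 to 6.15 on the log2 scale. The lowest detected signals on those arrays were 4.55 to 4.63, and the background correction changed the size of the folds of these probes.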
